A study of Rattus norvegicus with 8 samples.

Results

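The genes described here carry fatty acids from blood to the respiratory chain of muscle, or hold them as triglyceride. Of 41 listed genes of fatty acid uptake, storage, oxidation and uncoupling, 39 had at least 1 probe named for them on the array, 41 probes in all out of 22523. The annotation used here names no probe for Fasn, fatty acid synthase, or Acacb, the muscle acetyl-CoA carboxylase. Of the 41 probes, 38 were tested, each for a different gene, so no gene had a second tested probe. The 3 others were above background on 0 of 8 arrays: the probe of Acot1 and the dimmer of the pair of probes for Crat and for Angptl4.

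Thigh skeletal muscle was taken from Han Wistar rats, an outbred laboratory stock. In the treated group 4 rats ate feed with compound 197 at 150 ppm for 28 days, and 4 control rats ate standard laboratory chow. The labels place compound 197 among sulfonyl isoxazolines, and the series title names xenobiotic mitochondrial toxicity in muscle as the subject. No age, sex or feed intake is given for the rats. Each rat gave 1 array, an Illumina beadchip that reads labelled RNA as the brightness of short probes on beads. A control array had 8310 to 9507 probes above background and a compound 197 array 9743 to 10498. Arrays of 1 group correlated at 0.96 to 0.987 over all probes tested, and arrays of different groups at 0.889 to 0.931. The skeletal muscle markers Ckm and Acta1 read 15.27 to 15.77 on the log2 scale on all 8 arrays, near the top of the scale.

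Muscle takes up fatty acids that lipoprotein lipase frees from blood lipids, helped by CD36 and by binding proteins. An acyl-CoA synthetase activates them, and carnitine carries the activated chain across the inner mitochondrial membrane. Beta-oxidation then shortens the chain in a repeating cycle of dehydrogenation, hydration, a second dehydrogenation and cleavage, with auxiliary enzymes for double bonds that the cycle cannot handle. Electrons from the acyl-CoA dehydrogenases pass through the electron transfer flavoprotein, a dimer of alpha and beta subunits, to its membrane dehydrogenase and on to ubiquinone.

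Levels below are log2 normalised intensities, and a change is the compound 197 mean minus the control mean on that scale, with its standard error. A gene is called higher or lower where limma's adjusted p over all 9873 probes tested was under 0.05. In muscle of rats fed compound 197, 7 members were higher: Acsl1, Etfa, Eci2, Cd36, Eci1, Fabp4 and Acadm. The 4 lower members were Hadh, Plin5, Gpam and Acaa2, and 27 were not called. With median scaling in place of quantile normalization, 0 were lower. The 7 higher members were 18.4% of those tested, against 16.3% of all probes tested. The 4 lower members were 10.5%, against 24.2% of all probes. The share of higher members was thus close to that of all probes tested, and the share of lower members was below theirs, a difference that was not tested. All probes tested include dim ones, whereas every tested member but Acot2 was above background on all 8 arrays. Of the 7405 probes above background on all 8 arrays, 905 were higher and 2290 lower. That is a smaller share higher and a larger share lower than over all probes tested. The same 7 higher and 4 lower members were called in that fit. The median change was -0.28 over the 38 members and -0.18 over all probes tested, and 25 members, 65.8%, had a change below 0, against 66.5% of all probes. All 4 compound 197 arrays lay above all 4 control arrays for 7 members, where 16.2% of all probes did so. They lay below them for 2 members, Hadh and Gpam, where 23.8% of all probes did.

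**Figure D1:**
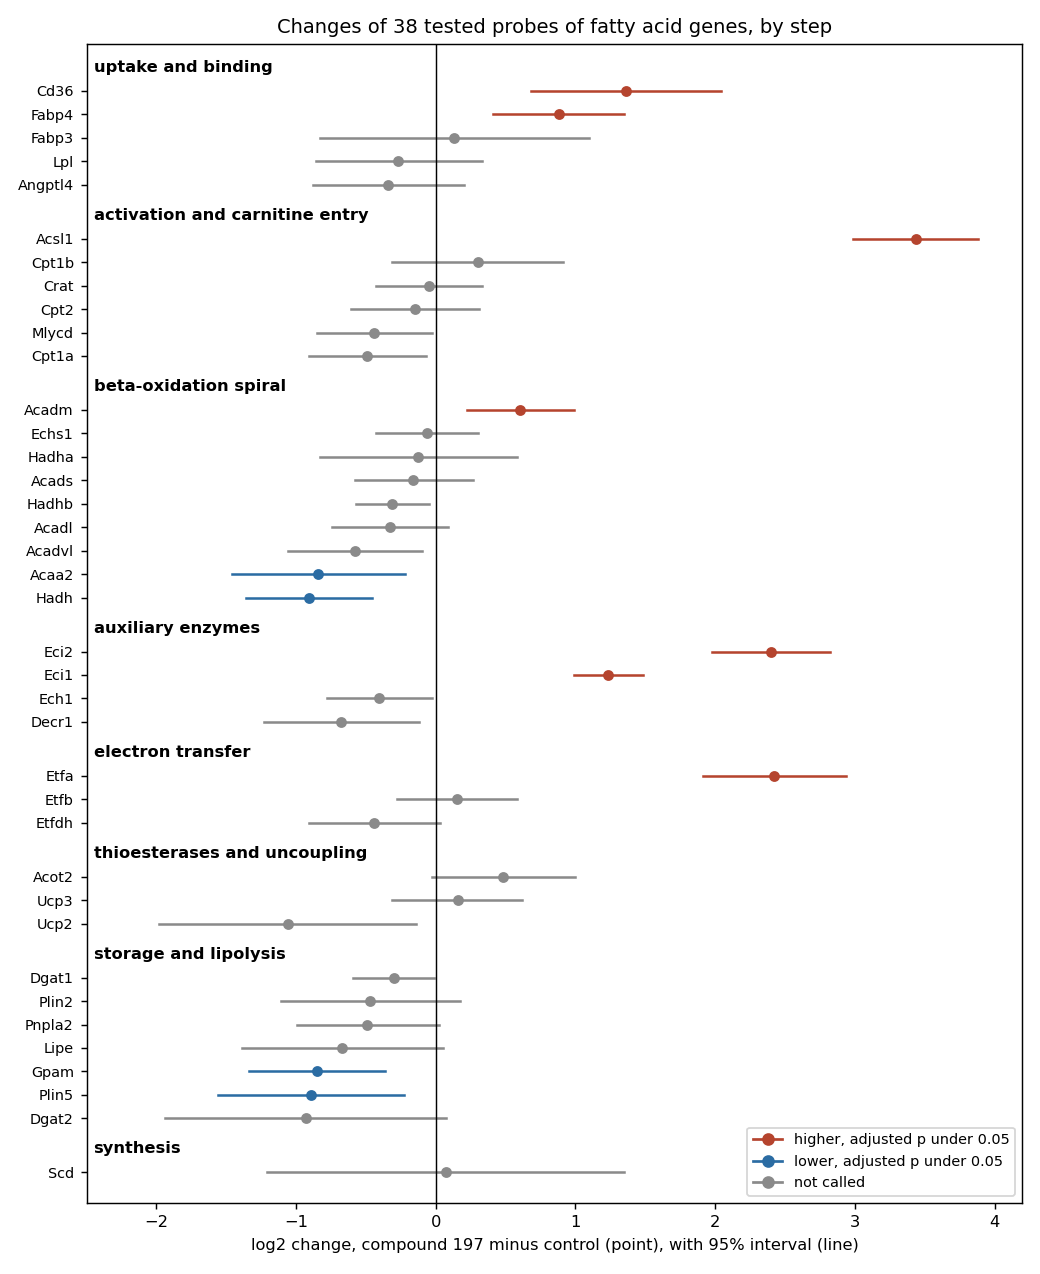
Log2 change (compound 197 minus control, point) with its 95% confidence interval (line) for the 38 tested probes, grouped by step of the pathway. The 7 higher members lie in 5 different steps, the 4 lower members lie in the beta-oxidation spiral and in storage, and all 7 storage genes have a point below 0 with the quantile normalization plotted (4 of 7 with median scaling).

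Among the uptake genes, Cd36 and Fabp4 rose, and the others were not called. Cd36 encodes the main fatty acid translocase of muscle membranes. Its control arrays read 10.51, 9.0, 10.44 and 10.18, and its compound 197 arrays 11.41, 11.39, 11.33 and 11.45. Every treated array was above every control array, and the treated arrays spanned 0.12 against 1.51 in the controls. The change was 1.36 ± 0.299, a 2.57-fold rise (adjusted p = 0.00704). Without control replicate 2, the lowest control, it was 1.02 (adjusted p = 0.00028). Fabp4, the fatty acid binding protein of adipocytes and capillary endothelium, had intensities before normalization of 2286, 1511, 1761 and 1707 in controls and 5005, 2990, 4233 and 3201 in treated rats. After normalization Fabp4 read 10.46 to 11.22 and 11.39 to 12.09. The groups did not overlap, and the change was 0.88 ± 0.209, or 1.84-fold (adjusted p = 0.00988). Treated replicates 1 and 3 had the highest Fabp4 readings and also the highest means of the adipocyte markers, 7.45 and 7.98. Treated replicates 2 and 4 had adipocyte means of 6.29 and 6.72, below the control range of 6.80 to 7.22. Their Fabp4 readings, 11.53 and 11.39, were still above every control. The part of fat content in the Fabp4 change was not tested.

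The binding protein of muscle itself, Fabp3, spread more among controls than between groups. It read 12.90, 10.87, 12.99 and 12.20 in controls and 12.49, 12.54, 11.94 and 12.52 in treated rats. Its change was 0.13 (95% interval -0.83 to 1.10, adjusted p = 0.824). Lpl, lipoprotein lipase, read 12.31 to 13.59 in controls and 12.63 to 13.21 in treated rats, a change of -0.27 (adjusted p = 0.441). Without control replicate 2 the Lpl change was -0.52 and passed the threshold (adjusted p = 0.0484). Angptl4, a secreted inhibitor of lipoprotein lipase, changed by -0.34 ± 0.237 and was not called (adjusted p = 0.278). That value is from its brighter probe. With median scaling Lpl changed by 0.34 and Angptl4 by 0.33, neither called. The other Angptl4 probe read 5.07 to 5.30, not above background on any array.

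The steepest rise of all members was in Acsl1, the long-chain acyl-CoA synthetase of muscle mitochondria and endoplasmic reticulum, which makes fatty acyl-CoA for oxidation. Before normalization its intensity was 511, 280, 308 and 427 in control replicates 1 to 4 and 4408, 3399, 3350 and 3854 in compound 197 replicates 1 to 4. After normalization Acsl1 read 8.71, 7.74, 8.23 and 8.51 against 11.91, 11.71, 11.64 and 11.67. The difference between the groups was far larger than the spread within either, 0.98 in controls and 0.28 in treated rats. Acsl1 changed by 3.44 ± 0.197, a 10.8-fold rise with a 95% interval of 7.94 to 14.8 (adjusted p = 1.4e-06). Of the 9873 probes tested, the Acsl1 probe had rank 106 by size of rise.

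The carnitine genes that follow Acsl1 were not called with quantile normalization. Cpt1b, the muscle carnitine palmitoyltransferase of the outer membrane, read 10.13, 8.73, 9.87 and 9.42 in controls and 10.01, 9.85, 9.71 and 9.79 in treated rats. The treated Cpt1b readings lay inside the control range, with a change of 0.30 (95% interval -0.31 to 0.91, adjusted p = 0.397). Cpt2, the inner membrane partner, changed by -0.15 (adjusted p = 0.574). Crat, which moves short acyl groups between CoA and carnitine, changed by -0.05 (adjusted p = 0.836). The other isoform of the outer membrane enzyme, Cpt1a, is best known from liver. It changed by -0.49 ± 0.186 (adjusted p = 0.0607), and passed without control replicate 4 (adjusted p = 0.0355). Mlycd, which degrades malonyl-CoA, the inhibitor of the carnitine step, changed by -0.44 ± 0.18 (adjusted p = 0.0798) and passed without control replicate 2 at -0.60 (adjusted p = 0.0114). With median scaling these 4 changes lay above 0 and were not called: Cpt2 0.46, Crat 0.53, Cpt1a 0.14 and Mlycd 0.16. Cpt1b changed by 0.88 with median scaling and was called higher (adjusted p = 0.0464). Within arrays, the log2 difference of Acsl1 and Cpt1b rose by 3.14, and its SD was 0.348 among controls and 0.0288 among treated rats.

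**Figure D2:**
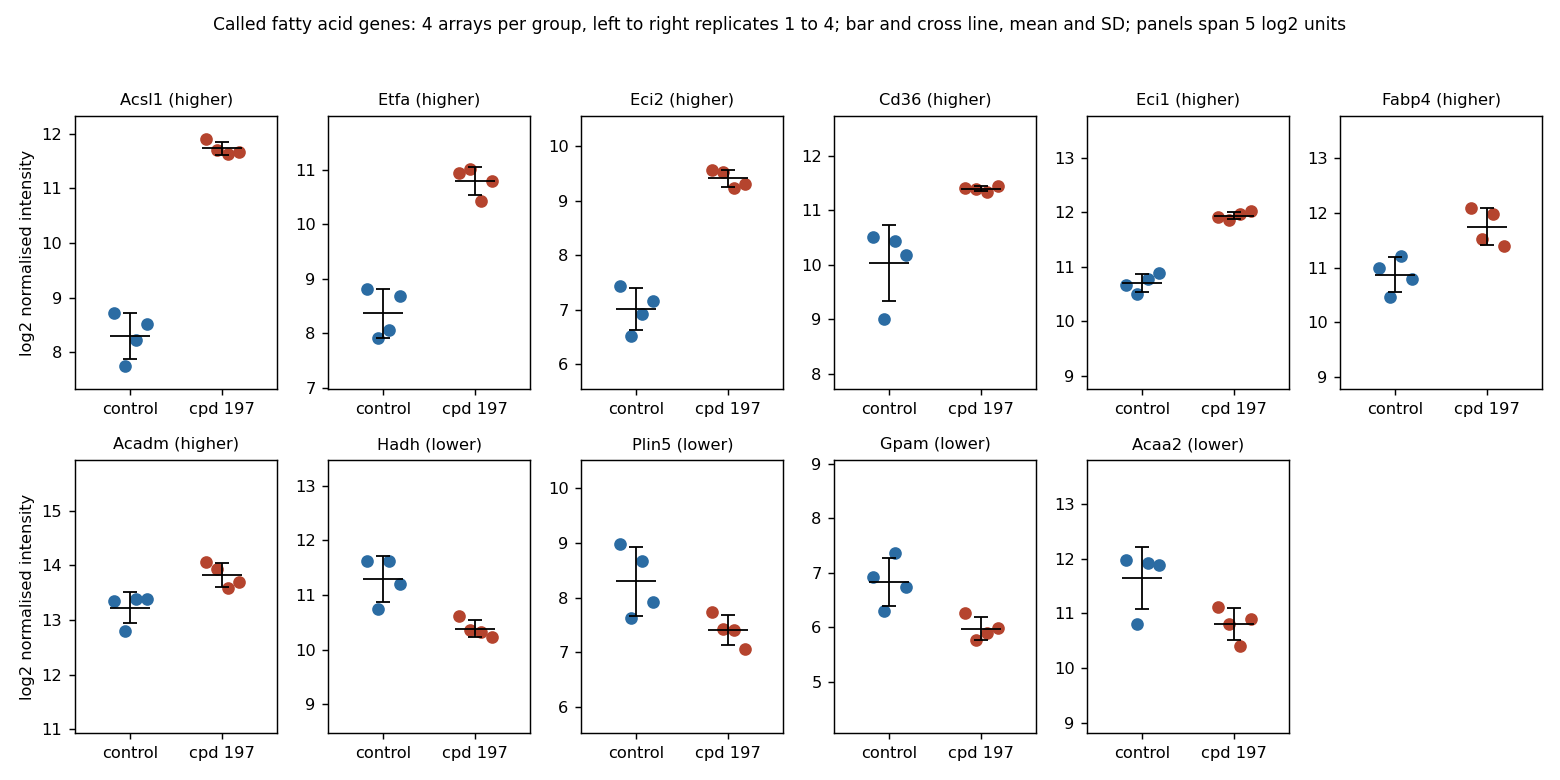
Log2 normalised intensity of the 11 called members on each array (points, replicates 1 to 4 from left to right; blue, control; red, compound 197), with group mean and SD (n = 4). Each panel spans the same length of log2 axis, so heights can be compared between panels: Acsl1, Etfa and Eci2 separate most, and Acaa2 and Plin5 overlap between groups.

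In the beta-oxidation spiral, 1 of 9 genes rose, and 2 fell with quantile normalization. These were 11.1% and 22.2%, against 16.3% and 24.2% of all probes. Acadm, the medium-chain acyl-CoA dehydrogenase, read 13.35, 12.79, 13.38 and 13.38 in controls and 14.07, 13.94, 13.59 and 13.70 in treated rats. The groups did not overlap, though the lowest treated and highest control reading were close. Acadm changed by 0.60 ± 0.170, or 1.52-fold (adjusted p = 0.0208). It was not called without compound 197 replicate 1 (adjusted p = 0.0584) or compound 197 replicate 2 (adjusted p = 0.0541).

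The other acyl-CoA dehydrogenases, which differ in the chain length they take, had changes below 0, or above 0 with median scaling (Acadvl 0.03, Acadl 0.27, Acads 0.42), and were not called. Acadvl, for very long chains, changed by -0.58 ± 0.211 (adjusted p = 0.0544), Acadl, for long chains, by -0.33 ± 0.182 (adjusted p = 0.18), and Acads, for short chains, by -0.16 ± 0.187 (adjusted p = 0.527). Within each array, the log2 difference of Acadm and Acadl rose by 0.93 between the groups, with SDs of 0.122 and 0.109, and that of Acadm and Acadvl rose by 1.18. Probes differ in brightness, so only the change of such a difference between groups is read here. Without control replicate 2, Acadvl (-0.78, adjusted p = 0.00519) and Acadl (-0.51, adjusted p = 0.0102) were called lower.

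Hadh, the short-chain 3-hydroxyacyl-CoA dehydrogenase of the second dehydrogenation, fell. It read 11.62, 10.74, 11.63 and 11.21 in controls and 10.61, 10.36, 10.33 and 10.24 in treated rats, with no overlap. Hadh changed by -0.91 ± 0.200, which is 1.88-fold lower (adjusted p = 0.00687). It was called with any 1 array left out. Acaa2, the medium-chain thiolase of the cleavage step, read 11.98, 10.80, 11.93 and 11.88 in controls and 11.12, 10.80, 10.41 and 10.89 in treated rats. Of its controls, 3 lay above all treated arrays and control replicate 2 lay among them. Acaa2 changed by -0.84 ± 0.273, or 1.79-fold lower (adjusted p = 0.036). That call was lost without any 1 of control replicates 1, 3 and 4 or compound 197 replicates 2, 3 and 4, at adjusted p up to 0.0909.

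The remaining spiral genes were not called. Hadha and Hadhb encode the alpha and beta chains of the trifunctional protein, which handles long chains. They changed by -0.13 (95% interval -0.83 to 0.58) and -0.31 (95% interval -0.57 to -0.05), with adjusted p of 0.769 and 0.0605. Hadhb passed without control replicate 2 (adjusted p = 0.0243) or without compound 197 replicate 1 (adjusted p = 0.0473). Echs1, the short-chain enoyl-CoA hydratase, changed by -0.06 (95% interval -0.43 to 0.30). With median scaling Hadha, Hadhb and Echs1 lay at 0.45, 0.26 and 0.54, not called.

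Eci1 and Eci2, enoyl-CoA isomerases that move a double bond of an unsaturated chain into the place the spiral can use, rose. A related isomerase outside the list of members, Eci3, changed by 0.08 ± 0.234 (adjusted p = 0.812). Eci1 is the mitochondrial form. It read 10.67, 10.50, 10.77 and 10.89 in controls and 11.91, 11.86, 11.96 and 12.02 in treated rats. The spread within each group was small, 0.39 and 0.16, and the groups lay well apart. Eci1 changed by 1.23 ± 0.109, a 2.35-fold rise (adjusted p = 2.7e-05). Eci2, found in peroxisomes and mitochondria, read 7.43, 6.53, 6.92 and 7.16 in controls and 9.56, 9.53, 9.24 and 9.31 in treated rats. Its intensity before normalization was 157 to 248 in controls and 705 to 903 in treated rats. Eci2 changed by 2.4 ± 0.187, a 5.27-fold rise (adjusted p = 1.1e-05).

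Neither of the other auxiliary enzymes was called. Decr1, the mitochondrial 2,4-dienoyl-CoA reductase, read 10.49 to 11.57 in controls and 10.05 to 10.83 in treated rats, a change of -0.68 ± 0.246 (adjusted p = 0.0546). It passed without control replicate 2 (adjusted p = 0.0183) or compound 197 replicate 1 (adjusted p = 0.0322). Ech1, a dienoyl-CoA isomerase, changed by -0.41 ± 0.166 (adjusted p = 0.0777), and passed without control replicate 2 (adjusted p = 0.0188). With median scaling Decr1 changed by -0.09 and Ech1 by 0.17, neither called. The within-array log2 difference of Eci2 and Decr1 rose by 3.07, and that of Eci1 and Ech1 by 1.64.

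Of the electron transfer genes, the alpha subunit of the flavoprotein rose, and its dimer partner was not called with quantile normalization. Etfa read 8.81, 7.91, 8.06 and 8.68 in controls and 10.93, 11.01, 10.43 and 10.80 in treated rats, a gap far wider than either group's spread. Etfa changed by 2.42 ± 0.226, a 5.37-fold rise (adjusted p = 3.9e-05). Etfb, the beta subunit, read 6.31, 5.64, 6.13 and 6.24 in controls and 6.44, 6.50, 6.06 and 5.91 in treated rats, which overlap. Etfb changed by 0.15 ± 0.188 (95% interval -0.28 to 0.58, adjusted p = 0.549). With median scaling the Etfb change was 0.73 and was called higher (adjusted p = 0.0233). The Etfb probe is dim, at 114 to 168 before normalization. Etfdh, the membrane dehydrogenase that takes the electrons on, changed by -0.44 ± 0.208 (adjusted p = 0.119) and was called lower without control replicate 2 at -0.66 (adjusted p = 0.00436). With median scaling the Etfdh change was 0.15 (adjusted p = 0.685). The within-array log2 difference of Etfa and Etfb rose by 2.27, and that of Etfa and Etfdh by 2.87. Each subunit is read by 1 tested probe, so neither change has a second reading.

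Promoters are shown for Acsl1, Etfa, Eci2 and Eci1, the rises with the smallest adjusted p, and for Hadh, the fall with the smallest, so that genes that rose together can be set beside one that fell. Each is the 250 bases before the transcription start from RefSeq (GRCr8), 5′ to 3′ on the gene's strand, with capitals for matches on either strand to CCAAT, the GC box GGGCGG or the nuclear receptor motif AGGTCA. They lie at chr16:52532393-52532642 (minus strand, Acsl1), chr8:64787966-64788215 (minus, Etfa), chr17:30075516-30075765 (plus, Eci2), chr10:13961000-13961249 (plus, Eci1) and chr2:222504447-222504696 (minus, Hadh).
Acsl1: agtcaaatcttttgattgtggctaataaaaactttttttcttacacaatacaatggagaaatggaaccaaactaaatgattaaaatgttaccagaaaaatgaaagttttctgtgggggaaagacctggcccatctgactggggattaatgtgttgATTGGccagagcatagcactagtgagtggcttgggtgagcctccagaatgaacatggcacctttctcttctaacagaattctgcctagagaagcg
Etfa: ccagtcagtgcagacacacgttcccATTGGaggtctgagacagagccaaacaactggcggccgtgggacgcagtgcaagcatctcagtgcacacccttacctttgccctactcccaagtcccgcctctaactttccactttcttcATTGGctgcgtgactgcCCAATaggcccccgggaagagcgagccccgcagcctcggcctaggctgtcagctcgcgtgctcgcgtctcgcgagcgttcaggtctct
Eci2: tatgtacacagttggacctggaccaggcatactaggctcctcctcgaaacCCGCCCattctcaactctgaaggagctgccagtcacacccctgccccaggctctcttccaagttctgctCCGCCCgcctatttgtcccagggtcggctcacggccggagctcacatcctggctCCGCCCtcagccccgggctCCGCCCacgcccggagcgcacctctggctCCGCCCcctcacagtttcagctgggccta
Eci1: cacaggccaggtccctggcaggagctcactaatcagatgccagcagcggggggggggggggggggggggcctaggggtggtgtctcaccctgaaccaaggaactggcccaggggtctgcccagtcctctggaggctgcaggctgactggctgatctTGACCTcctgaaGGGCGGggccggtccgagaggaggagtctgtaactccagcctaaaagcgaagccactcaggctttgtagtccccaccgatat
Hadh: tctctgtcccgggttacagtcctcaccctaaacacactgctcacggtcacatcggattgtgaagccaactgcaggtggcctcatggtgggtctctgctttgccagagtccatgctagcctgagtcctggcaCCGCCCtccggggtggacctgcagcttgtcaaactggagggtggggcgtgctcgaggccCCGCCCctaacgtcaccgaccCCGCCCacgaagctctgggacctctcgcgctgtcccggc

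No motif of these 3 was in the windows of all 4 rises shown. Cd36 and Acadm, also higher, have windows with none of them. The Acsl1 window holds CCAAT in 1 place and the Etfa window in 3, while the Eci2 window holds the GC box in 5 places and the Eci1 window in 1, beside 1 AGGTCA. Hadh, which fell, holds the GC box in 3 places. Over the 30 members with a RefSeq window, GGGCGG was present in 16, CCAAT in 10 and AGGTCA in 6. Of all 33469 windows, 30.5% held GGGCGG, 34% held CCAAT and 14.1% held AGGTCA. The direct repeat of that last motif with 1 base between, the form bound by PPAR with RXR, was in 0 of the 30 members and in 0.0508% of all windows. TCAAGGTCA, bound by oestrogen-related receptors, was in 0 members and 0.388% of windows, and the E-box CACGTG was in 1 member, Plin2, and 5.59% of windows. A match is a run of letters and shows no binding.

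Among genes that free CoA or uncouple respiration, 0 of 3 tested were called. Acot2, a mitochondrial acyl-CoA thioesterase, was above background on 2 of 4 control and 4 of 4 treated arrays and changed by 0.48 ± 0.228 (adjusted p = 0.118). Acot1 and Acot2 are close in sequence, so the probe named for Acot2 may also read Acot1. The muscle uncoupling protein Ucp3 read 9.44 to 10.30 in controls and 9.92 to 10.34 in treated rats, a change of 0.16 (95% interval -0.31 to 0.62). Ucp2, which is also abundant in immune cells and fat, read 9.03, 9.48, 9.93 and 10.71 in controls and 8.82, 8.36, 9.61 and 8.11 in treated rats. Its change of -1.06 ± 0.406 missed the threshold (adjusted p = 0.0643). Ucp2 was called lower without control replicate 1 (adjusted p = 0.0354) or without compound 197 replicate 3 (adjusted p = 0.0269).

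All 7 genes of triglyceride storage and lipolysis had changes below 0, with a median of -0.67, and 2 of them passed. Over all probes 66.5% were below 0 and 24.2% were called lower, so 2 of 7, 28.6%, was close to the background. With cyclic loess normalization all 7 were again below 0, and with median scaling 4 of 7 were. Plin5, which coats lipid droplets and ties them to mitochondria, read 8.98, 7.63, 8.67 and 7.92 in controls and 7.74, 7.42, 7.40 and 7.06 in treated rats. Only treated replicate 1 reached into the control range. Plin5 changed by -0.89 ± 0.292, or 1.86-fold lower (adjusted p = 0.0371). The call was lost without any 1 of control replicates 1 and 3 or compound 197 replicates 2, 3 and 4, at adjusted p up to 0.0962. Gpam, the mitochondrial acyltransferase that starts glycerolipid synthesis, read 6.93, 6.29, 7.36 and 6.74 in controls and 6.26, 5.77, 5.90 and 5.98 in treated rats, with no overlap. Gpam changed by -0.85 ± 0.216, or 1.80-fold lower (adjusted p = 0.0135), and was called with any 1 array left out, at adjusted p up to 0.0389. Its probe is dim, at 114 to 201 before normalization, and with no background correction the Gpam change was -0.49 (adjusted p = 0.0187).

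The other storage genes were not called, and with median scaling Dgat1, Pnpla2 and Plin2 lay above 0, at 0.28, 0.08 and 0.11. Dgat2 and Dgat1 carry out the last step of triglyceride synthesis. Dgat2 had intensities before normalization of 1165, 330, 834 and 531 in controls and 626, 363, 313 and 395 in treated rats. Control replicates 1 and 3 were the brightest, and the normalized log2 reading of control replicate 2, 8.02, lay among the treated ones of 7.83 to 8.95. The mean difference gave a change of -0.93 ± 0.445 (adjusted p = 0.123) that passed without control replicate 2 (adjusted p = 0.0165). Dgat1 changed by -0.30 ± 0.128 (adjusted p = 0.0933). Among lipolysis genes, Pnpla2, adipose triglyceride lipase, changed by -0.49 ± 0.222 (adjusted p = 0.11), and passed without control replicate 4 (adjusted p = 0.038). Lipe, hormone-sensitive lipase, changed by -0.67 ± 0.317 (adjusted p = 0.121), and passed without control replicate 2 (adjusted p = 0.0235). Plin2, the common lipid droplet coat protein, changed by -0.47 ± 0.283 (adjusted p = 0.214).

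Scd, stearoyl-CoA desaturase, was the single synthesis gene tested. It read 9.08, 9.02, 10.15 and 8.75 in controls and 10.78, 8.09, 9.84 and 8.56 in treated rats. The treated arrays spanned 2.69, the widest range of any member in either group, and the change was 0.07 ± 0.566 (95% interval -1.21 to 1.35). The high Scd arrays, treated replicates 1 and 3 and control replicate 3, were also the 3 with the highest mean of the adipocyte markers. Treated replicate 1 and control replicate 3 also read highest for Fabp1, at 10.41 and 8.07 against 5.83 to 6.59 elsewhere. Slc27a5 read 7.89 and 7.51 on these arrays and 4.92 to 5.11 elsewhere. The part of fat or of any other tissue in the Scd readings was not tested.

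How many members count as lower depended on the normalization between arrays, and the 7 rises did not. With median scaling the 7 rises held, 3 more passed (Cpt1b at 0.88, Etfb at 0.73 and Acot2 at 0.86) and 0 were lower, where 23.2% of all probes were higher and 1.91% lower. With cyclic loess the same 7 rose and Hadh alone was lower at -0.67 (adjusted p = 0.0302), where 19.4% of all probes were higher and 8.02% lower. The median change of all probes tested was 0.31 with median scaling and -0.01 with cyclic loess, and that of the members 0.34 and -0.07. Relative to the median change of all probes, the same 7 members were higher and 2, Hadh and Gpam, were lower, where 19.7% of all probes were higher and 8.53% lower. Changes of Hadh, Plin5, Gpam and Acaa2 stayed below 0 with median scaling, at -0.30, -0.27, -0.22 and -0.25. The rises of Acadm and Fabp4 were 1.19 and 1.48 with median scaling.

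**Figure D3:**
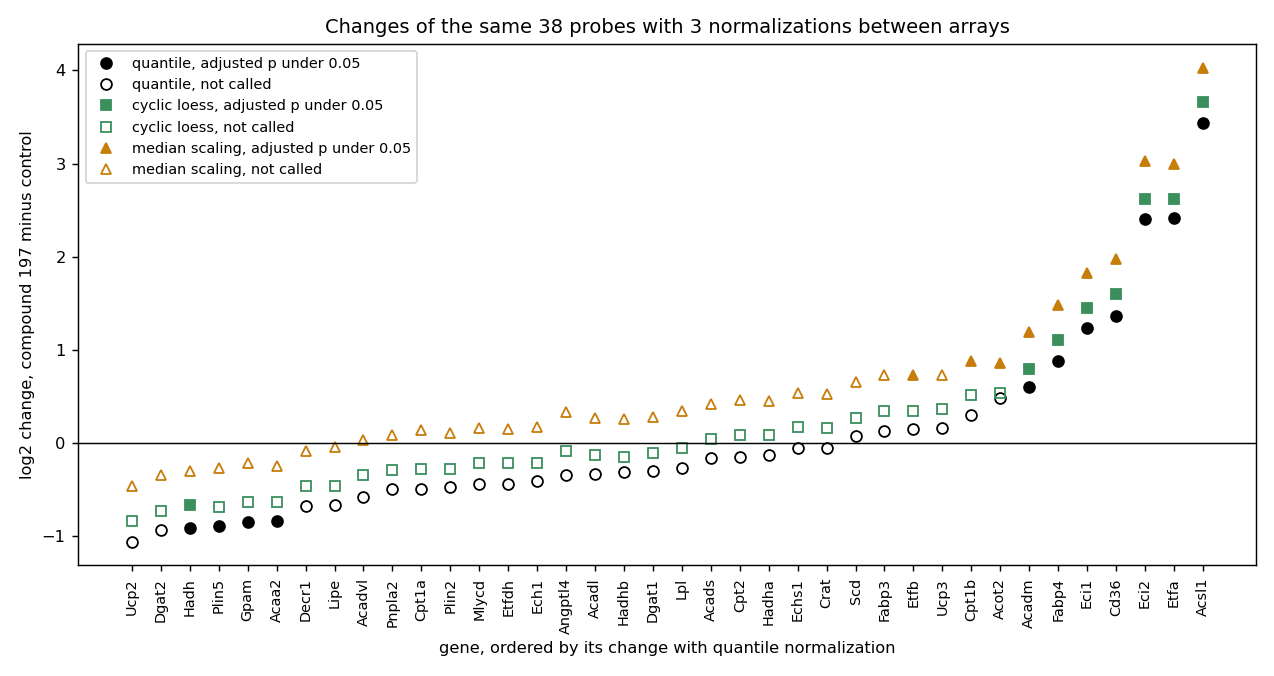
Log2 change of the 38 tested probes with quantile normalization (circles), cyclic loess (squares) and median scaling (triangles), ordered by the first; filled symbols passed an adjusted p of 0.05. The 7 rises at the right are filled in all 3, and the 4 falls are filled with quantile normalization, with Hadh alone filled with cyclic loess.

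Control rats differed from each other in these genes more than treated rats did. The control SD was the larger in 31 of 38 members, 81.6%, against 67.2% of all probes tested. The median SD of the members was 0.421 in controls and 0.228 in treated rats, against 0.225 and 0.16 over all probes. Control replicate 2 was the lowest control for 30 of 38 members, where it was lowest for 23.8% of all probes, and highest for 0 members. Its median deviation from the control mean was -0.47. It lay at least 0.5 below every other control for 14 members, 36.8%, against 2.28% of all probes. Among treated rats, replicate 1 was highest for 26 of 38 members and for 22% of all probes. Without control replicate 2, the 7 rises held and 14 members were lower, among them the 4 called with all arrays, where 16.4% of all probes were higher and 23% lower. The 10 added were Lpl, Mlycd, Acadvl, Acadl, Hadhb, Ech1, Decr1, Etfdh, Dgat2 and Lipe.

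**Figure D4:**
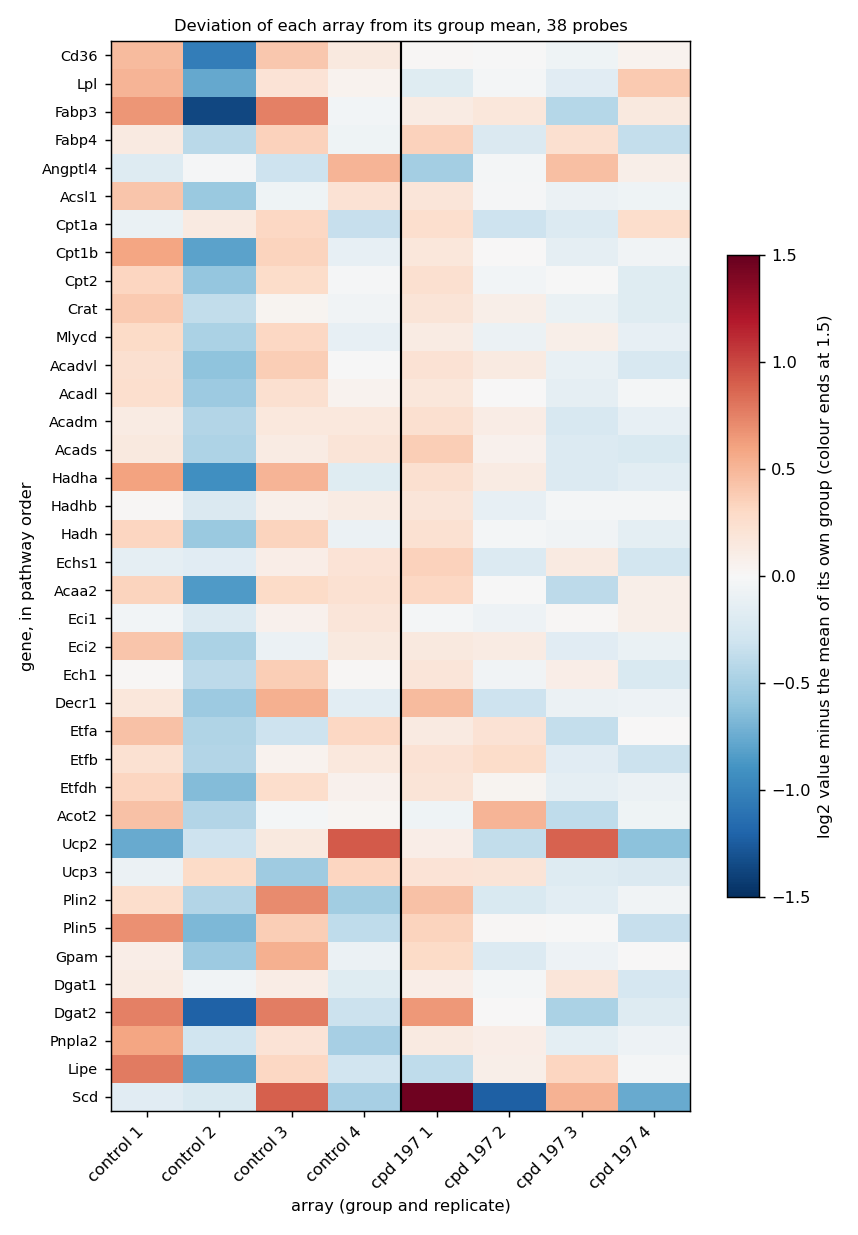
Log2 value of each array minus the mean of its own group (colour) for the 38 tested probes (vertical, in pathway order) on the 8 arrays (horizontal). The column of control replicate 2 is below its group's mean for most genes, with a median of -0.47, and the treated columns are paler than the control columns.

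Control replicate 2 also had the lowest reading of slow and oxidative fibre markers. The mean of 8 such markers was 11.75, 6.65, 11.52 and 8.63 in controls and 8.73, 8.89, 9.02 and 12.46 in treated rats. Myh7, the slow myosin heavy chain, read 14.65, 6.24, 14.62 and 10.79 in controls and 9.08, 10.21, 11.42 and 14.97 in treated rats. Of these 8 markers, 0 were called, and their groups overlapped. For 19 of the 38 members, controls 1 and 3 read above control 4 and control 4 above control 2, the order of the slow fibre mean, against 9.29% of all probes. This order was chosen after the values were seen. Among treated rats replicate 4 had by far the most slow fibre marker and was highest for 4 members. The part of fibre makeup in the member changes was not tested.

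Of 6 fast fibre markers tested, 3 rose, 50% against 16.3% of all probes: Myh4 by 3.63, Myh2 by 4.36 and Tnni2 by 1.48. Tnnt3, Actn3 and Tnnc2 changed by 0.00, 0.08 and 0.06 and were not called. The list mean was 12.47 to 12.75 in controls and 14.14 to 14.33 in treated rats. Their part in the rises of Acsl1, Etfa, Eci2, Cd36, Eci1, Fabp4 and Acadm was not tested. In whole muscle, fewer cells of a type and less RNA per cell cannot be told apart. Of 6 adipocyte markers tested, 0 were called, with a mean of 6.80 to 7.22 in controls and 6.29 to 7.98 in treated rats. Adipoq read 5.19 to 5.69 and 5.47 to 7.41, and Lep and Retn were not above background on any array. Of 6 endothelial probes 0 rose and 1, for Tie1, fell, 16.7% against 24.2% of all probes, and Cdh5 was not above background on any array. Of 2 macrophage and leukocyte, 3 erythrocyte and 5 fibroblast markers, 0 were called. Among 7 markers of skeletal muscle fibres, Myh4 alone was called, 14.3% higher against 16.3% of all probes.

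**Figure D5:**
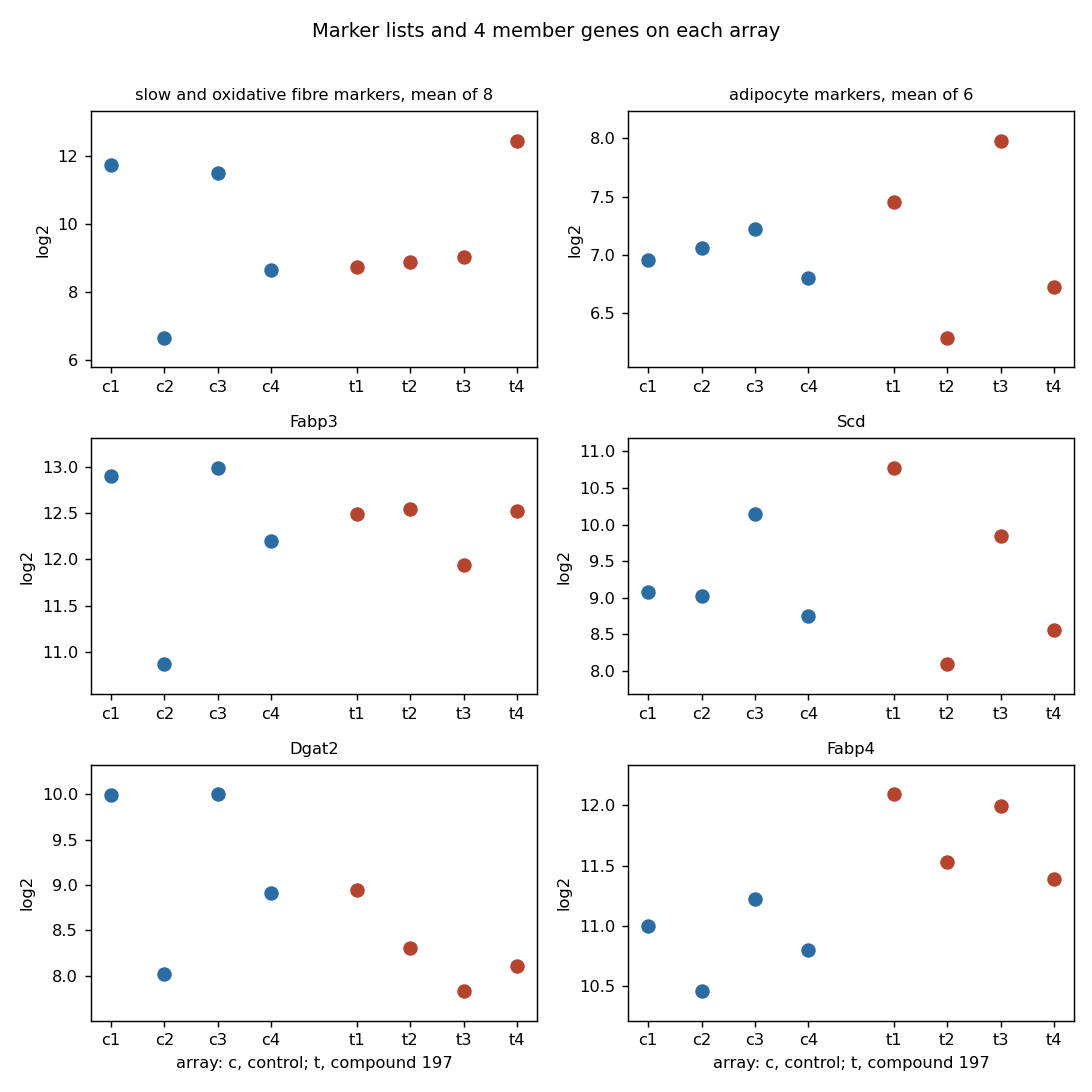
Mean log2 level of the slow and oxidative fibre markers and of the adipocyte markers on each array, above the log2 level of member genes on the same arrays (c, control; t, compound 197). Control replicate 2 is lowest for slow fibre markers (6.65), Fabp3 (10.87) and, among controls, Dgat2 (8.02). Treated replicates 1 and 3 are highest for adipocyte markers and Fabp4. Treated replicates 2 and 4 lie below all controls for adipocyte markers but above all controls for Fabp4.

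Other genes of fatty acid metabolism, 148 listed from their textbook roles, gave 89 tested probes for 87 genes. Of these probes 12 were higher, 13.5%, and 17 lower, 19.1%, both shares below those of all probes by a difference that was not tested. For Acot9, Acox3, Ppargc1a, Acsl4 and Acot3, among the 12 higher, the treated arrays alone were enough for the filter on dim probes. The thioesterases, which split acyl-CoA, held the largest rises. Acot9, of mitochondria, was not above background on any control array and read 8.98 to 9.10 on all treated arrays, at least 11.4-fold higher (adjusted p = 2e-08). It entered the test through its treated arrays alone, so that p adds no support to the bound. Here the treated mean is set against the mean of each control array's lowest signal above background, or the probe's own reading where that was higher. Acot13 changed by 2.54 ± 0.571 (adjusted p = 0.00781), with control readings of 10.45, 7.68, 10.01 and 8.18. Of 6 tested thioesterase probes, 3 rose and 2 fell, 50% and 33.3% against 16.3% and 24.2% of all probes. Acot3, the third rise, was above background on 1 control and 4 treated arrays, so its treated arrays alone were enough for the filter. Among the falls was Acot7 at -0.66 (adjusted p = 0.00842), or -0.02 with median scaling (adjusted p = 0.962).

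Of 17 regulator probes, 2 were higher and 2 lower, 11.8% each, and of 9 probes for activation and carnitine 1 was higher and 1 lower, 11.1% each. Of all probes 16.3% were higher and 24.2% lower, so these shares lay below the background, a difference that was not tested. Ncoa1, a nuclear receptor coactivator, was the largest fall among regulators at -0.72 (adjusted p = 0.00191), and -0.10 with median scaling (adjusted p = 0.79). Ppargc1a, a coactivator of mitochondrial genes, was above background on 1 control and 4 treated arrays and changed by 1.88 ± 0.202 (adjusted p = 1.1e-04). The treated arrays of Ppargc1a alone were enough for the filter on dim probes, so that p adds no support. Of its 4 control readings 3 were not above background, so the size of that change is uncertain. Klf15, a transcription factor of muscle lipid use, changed by 1.27 ± 0.216 (adjusted p = 0.00193). The PPAR genes themselves were not called: Ppara changed by -0.11 (adjusted p = 0.594), Ppard by -0.03 (adjusted p = 0.87) and Pparg by 0.05 (adjusted p = 0.886). Acsl4, which prefers polyunsaturated chains such as arachidonate, was above background on 2 control and 4 treated arrays and changed by 1.42 ± 0.12 (adjusted p = 2e-05). Its treated arrays alone were enough for the filter on dim probes, so that p adds no support either. With no background correction the Acsl4 change was 0.79, so its size is uncertain too. Hsd17b12, of fatty acid elongation, changed by 1.77 ± 0.159 (adjusted p = 3.2e-05). The carnitine-acylcarnitine carrier Slc25a20 changed by -0.07 (adjusted p = 0.869).

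The lower genes were led by Acad9 at -0.81, Slc27a4 at -0.77, Gpat4 at -0.76, Ncoa1 at -0.72 and Acss2 at -0.69. Slc27a4, a fatty acid transport protein, read 6.31 to 6.84 in controls and 5.69 to 5.94 in treated rats (adjusted p = 0.00197). Gpat4, an acyltransferase of the same glycerolipid step as Gpam, read 7.10 to 7.48 and 6.35 to 6.91 (adjusted p = 0.00351). Acad9 (adjusted p = 0.0406), a dehydrogenase relative that serves complex I assembly, and Acss2 (adjusted p = 0.0494), an acetyl-CoA synthetase, had overlapping groups, and their calls held in 3 and 2 of 8 fits that left out 1 array. With median scaling 22 of the 89 probes were higher and 0 lower, where 23.2% of all probes were higher and 1.91% lower. Of 15 other storage and lipolysis probes, 0 rose and 4 fell with quantile normalization, 26.7% against 24.2% of all probes and so close to the background.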

How the data were processed

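Labelled RNA was hybridised to 1-colour Illumina beadchips, 4 arrays per group. The authors deposited non-normalized intensity values and normalized intensity values, per the file headers, with a detection p-value for each probe and array, also per the file headers. Not given in the sources used here: scanner software, detection method, normalization method. The normalized table holds the same sorted values in every column, and the series matrix equalled it in 100% of cells. Columns of other samples numbered 0.

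The non-normalized values were processed here with neqc of limma (background from the detection p-values, offset 16, quantile normalization, log2). Probes with a detection p under 0.05 on at least 4 of 8 arrays were tested with lmFit and eBayes (limma 3.58.1, R 4.3.3), 2-sided, with Benjamini-Hochberg adjustment over 9873 probes. The number of arrays limits the precision, and p-values measure the spread between these rats. Symbols came from the platform annotation (13793 probes with 1 symbol, 0 with several, 8730 not listed), brought up to date through RefSeq (GRCr8). The fit was tested on simulated data. Figures used matplotlib 3.10.9. The members, pathway genes and markers were chosen with earlier results of these data known. Named were all members, and of the other pathway genes the 6 largest rises and falls among called probes. The 3 PPAR genes, Slc25a20, Eci3, Fabp1, Slc27a5 and the genes under other observations were added after their values were seen. Alternatives changed normalization, background, source, filter, variance model, threshold and arrays.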

Additional observations from a re-analysis of the deposited data

Results flagged for a closer look

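In 4 of 76 groups of 4 arrays, 1 per group and tested member, a single array lay so far from the other 3 that its gap, as a share of the group's range, passed Dixon's 95% limit. Chance does this in about 1 group in 20. Acadm read 12.79 in control replicate 2 and 13.35 to 13.38 in the other controls. Acads read 8.69 in control replicate 2 and 9.27 to 9.35 in the others. Acaa2 read 10.80 in control replicate 2, against 11.88 to 11.98. Fabp3 read 11.94 in compound 197 replicate 3, against 12.49 to 12.54 in the other treated rats. In 3 of the 4 cases the array apart was control replicate 2, the control with the least slow fibre marker.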

How the results depend on the processing

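Across the alternatives, 7 higher members became 10 with median scaling, 6 at an adjusted p under 0.01, and 6 to 7 with 1 array left out. The 4 lower members became 0 with median scaling, 1 with cyclic loess, 2 with no detection filter, 7 with a mean-variance trend, 7 with array weights, 1 at an adjusted p under 0.01 and 2 relative to the median change. With 1 array left out the count of lower members ran from 2 to 14. The most came without control replicate 2 and the fewest, 2, without control replicate 3 or without compound 197 replicate 2 or 4. Of the other pathway probes, 12 higher became 22 with median scaling, and 17 lower became 0 with median scaling and 5 with cyclic loess, and 10 to 21 with 1 array left out. Over all probes, 23.2% were higher and 1.91% lower with median scaling, and 8.02% were lower with cyclic loess. The causes were not tested. Of 1101 comparisons of a member's change with an alternative, 0 called changes reversed sign, and 53 uncalled changes crossed 0 and stayed uncalled.

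The labels do not say whether equal replicate numbers pair the rats. Deviations of same-numbered arrays from their group means correlated at -0.04, -0.09, -0.13 and -0.09, which cannot settle it. With the replicate number as a block, 6 members were higher and 5 lower. Acadm lost its call (adjusted p = 0.0504) and Decr1 gained one (adjusted p = 0.0369). A block for the slide was not run, because no slide is named. Dim probes such as Gpam lie close to background, where the change depends on the correction.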

Other observations

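Of 11 peroxisomal genes tested outside the list of members, 3 rose and 2 fell, 27.3% and 18.2% against 16.3% and 24.2% of all probes. Abcd3, a transporter of the peroxisomal membrane, changed by 0.90 (adjusted p = 0.00142) and Phyh, which starts the breakdown of branched phytanic acid, by 0.80 (adjusted p = 7.1e-04). Acox3, a peroxisomal acyl-CoA oxidase, was above background on 0 of 4 control and 4 of 4 treated arrays, and was at least 1.82-fold higher. It entered the test through its treated arrays alone. Scp2 changed by -0.33 (adjusted p = 0.0329) and Amacr by -0.45 (adjusted p = 0.0269), and these calls held in 3 and 2 of 8 fits that left out 1 array, with adjusted p up to 0.0826 and 0.0651. The Amacr groups overlapped. With median scaling Abcd3 and Phyh were at 1.47 and 1.41, and Scp2 and Amacr at 0.24 and 0.13. 

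Of 10 other mitochondrial oxidation genes tested, 2 rose and 4 fell, 20% and 40% against 16.3% and 24.2% of all probes. Acad11 changed by 0.47 (adjusted p = 0.0388) and Hsd17b10 by 0.46 (adjusted p = 0.0241), calls that held in 3 and 4 of 8 fits that left out 1 array, with adjusted p up to 0.1 and 0.0611. Acat1, the thiolase of ketone body use, changed by -0.51 (adjusted p = 0.00463) and Hibch, of valine breakdown, by -0.43 (adjusted p = 0.00975), and these lay at 0.10 and 0.14 with median scaling.

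G0s2, which inhibits the lipase encoded by Pnpla2, read 10.31, 8.75, 10.56 and 10.10 in controls and 10.53, 12.10, 10.50 and 11.53 in treated rats, a change of 1.23 ± 0.468 that was not called (adjusted p = 0.0627).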
